A study of Mus musculus with 6 samples.

Results

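Chaf1a, Chaf1b, Uhrf1, Rrm1, Rrm2, Tyms, Tk1 and Dut serve the S phase by placing histones on new DNA, copying its methylation marks and supplying deoxynucleotides. They were read in laser-microdissected intestinal crypts of mice with and without loss of imprinting (LOI) of Igf2. The genes were taken by name, by matching the accession given for each array probe to a gene table. Of the 8 genes, 6 had a probe, among 12323 named genes measured, with 9 of the 41006 probes of the array in all. Rrm1 and Tyms had no probe paired with their names and were not analysed here.

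The LOI(+) group was 3 C57BL/6 mice that had inherited a maternal chromosome with a deletion of 3 kb at H19 together with the 10 kb before it, where the differentially methylated region lies. The LOI(-) group was 3 wild-type mice from the same kind of cross, H19+/- females with wild-type males. By the series' design, the deletion turns on the maternal copy of the growth factor gene Igf2, which is silent in LOI(-) mice, and it also removes H19 itself, so the 2 changes cannot be told apart. All mice were 120 days old, 2 of 3 in each group were labelled male, and the others had no sex label. About 8000 crypts per mouse were cut from the middle of the small intestine and pooled into 1 RNA sample. Each sample was labelled with Cy3 and hybridised to its own array against Cy5-labelled RNA pooled from cultured mouse cell lines. Values are log2 of Cy3 over Cy5, so 0 means equal normalised signal of crypt and pooled RNA, and a difference is LOI(+) minus LOI(-) with its standard error (SE). In such samples, fewer cells of a type and less RNA per cell cannot be told apart.

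In dividing cells, chromatin assembly factor 1 loads histones H3 and H4 onto DNA just behind the replication fork, and UHRF1 binds hemimethylated DNA there and brings the methyltransferase DNMT1 to it. Ribonucleotide reductase, made of RRM1 and RRM2 subunits, turns ribonucleotides into deoxynucleotides. TK1 salvages thymidine, and the dUTPase encoded by Dut keeps uracil out of DNA while it provides the substrate of thymidylate synthase. In the small intestine these functions belong mainly to the fast-dividing cells of the crypts. Many such genes are known targets of E2F transcription factors at the start of S phase.

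The 9 probes were 60 bases long, and the first 30 bases of each are shown because probes of the same gene gave different results.
Chaf1a, probe A_66_P114662: ttaatcacagcacttgctgtgggcaaacat
Chaf1b, probe A_66_P108439: ttggccatttcctccacggatggctattgc
Uhrf1, probe A_66_P137161: acagctccccaacccgggtgaaccagccct
Uhrf1, probe A_66_P134729: tttttgagatgggtttagaaaccgttgagt
Uhrf1, probe A_66_P120074: agctatacggcaacatcaggctcttgaatg
Rrm2, probe A_66_P130690: atcttgaagtttgcaaatgctatgatggta
Rrm2, probe A_66_P118721: gagagataatcaccaacgccgttaggatag
Tk1, probe A_66_P135413: cagaacctcagctcttagtgagccactttt
Dut, probe A_66_P132690: accgggaagaattagaactttgctggaagt
The probe of highest mean Cy3 signal stood for a gene, which was A_66_P137161 for Uhrf1 and A_66_P130690 for Rrm2.

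The arrays were alike in brightness, with a median Cy3 signal of 552 to 603 over a median local background of 387 to 391, and their log2 ratios correlated across genes with r of 0.932 to 0.975. LOI(+) 2 had the lowest mean r, 0.948, and the most outlier features, 146 against 14 to 50 on the others. H19 itself was not analysed here, so it gave no check of the genotypes. Markers of Paneth and goblet cells, which sit in crypts, were far above the pooled RNA, with list means of 3.08 to 3.50 and 3.86 to 4.02 in LOI(+) crypts, against 3.33 to 3.55 and 3.99 to 4.13 in LOI(-) crypts, on the log2 ratio scale. The stem cell marker Lgr5 and the mitotic genes Birc5, Cdk1, Ccnb1 and Ccna2 exceeded, on each of the 6 arrays, the level below which 95% of the negative controls lay. So did 34743 of all 37948 features, so passing this level does not mark crypt cells.

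Chaf1a differed most among the 6 genes. Chaf1a encodes the large subunit of chromatin assembly factor 1, which holds the complex at the fork. Its log2 ratio was -0.19, 0.029 and -0.20 in LOI(+) crypts, against -0.75, -0.71 and -0.54 in LOI(-) crypts. The groups did not overlap, and the lowest LOI(+) mouse stood 0.34 above the highest LOI(-) mouse. The mean was -0.12 ± 0.13 in LOI(+) and -0.67 ± 0.11 in LOI(-) (SD, n = 3 each). The difference of 0.55 ± 0.089 (SE), a fold of 1.46, had a 95% interval from 0.34 to 0.76. By limma it ranked 19th of 37948 genes and unnamed probes by p, with an unadjusted p of 0.000476, but its adjusted p was 0.801 and it did not pass. In the raw signals, Cy3 was 2203, 3048 and 2214 in LOI(+) against 1818, 1444 and 1666 in LOI(-). The Cy5 signal of the pooled RNA was 4793, 5550 and 5339 on the LOI(+) arrays against 5168, 4872 and 4781 on the LOI(-) arrays. So the crypt channel separated the groups and the reference channel did not. With any 1 mouse left out, the difference lay between 0.47 and 0.61.

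Chaf1b, which encodes the WD40-repeat partner subunit, did not differ beyond the spread between mice. Its log2 ratio was -0.93, -0.82 and -0.73 in LOI(+) crypts, against -1.04, -0.97 and -0.77 in LOI(-) crypts, and the groups overlapped. The difference was 0.099 ± 0.090 (SE), with a 95% interval from -0.11 to 0.31 and a limma adjusted p of 0.868. This probe was dim. Its Cy3 signal was 454, 453 and 466 in LOI(+) and 449, 445 and 457 in LOI(-), where the 95th percentile of the negative controls was 439 to 446 on the LOI(+) arrays and 445 to 449 on the LOI(-) arrays. It was above that level on 5 of 6 arrays, so little signal stood behind its ratio. The difference was 0.043 without LOI(-) 1, 0.049 without LOI(+) 3, 0.15 without LOI(+) 1 and 0.18 without LOI(-) 3, and 0.23 with a normexp offset of 16. Chaf1a minus Chaf1b was 0.74, 0.85 and 0.53 in LOI(+), against 0.29, 0.26 and 0.23 in LOI(-), and the exact permutation test over the arrays, two-sided, gave p = 0.1, the smallest that 3 against 3 mice allow. With Chaf1b so near the negative controls, that difference largely repeats Chaf1a and does not show that the subunits differ. The same comparison could not be made for Rrm1 with Rrm2 or Tyms with Tk1.

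Uhrf1 gave opposite signs on its probes. On the brightest, A_66_P137161, the log2 ratio was 0.20, -0.025 and 0.097 in LOI(+) crypts, against 0.059, 0.19 and 0.19 in LOI(-) crypts. The groups overlapped, and the difference was -0.052 ± 0.077 (SE), with a 95% interval from -0.23 to 0.13 and a limma adjusted p of 0.918. On A_66_P120074 the ratio was -0.068, -0.081 and -0.021 in LOI(+), against 0.041, -0.11 and 0.079 in LOI(-), also overlapping, with a difference of -0.059 ± 0.068 (SE). On A_66_P134729 it was 0.25, 0.17 and 0.18 in LOI(+), against -0.34, -0.26 and 0.10 in LOI(-). There the groups did not overlap, by a gap of 0.073, with LOI(-) 3 nearest to the LOI(+) mice. The difference was 0.37 ± 0.11 (SE), with an unadjusted p of 0.0152 and an adjusted p of 0.810 in limma over all probes. The unadjusted p was under 0.05 in 20 of 23 alternative settings, but not without moderation, LOI(-) 1 or LOI(-) 2. Each of the 3 probes exceeded that negative control level on 6 arrays, and Cy3 signals were 1070 to 1433 for A_66_P137161, 634 to 822 for A_66_P134729 and 525 to 575 for A_66_P120074. Uhrf1 therefore has no settled direction here, and with the mean of its probes the sign of the gene turned, to 0.085.

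Rrm2, the reductase subunit whose level limits deoxynucleotide synthesis in S phase, had a higher mean in LOI(+) on both of its probes. The probes differed in where LOI(+) 2 stood. On the brighter probe, A_66_P130690, the log2 ratio was 0.24, -0.66 and 0.41 in LOI(+) crypts, against -0.52, -0.21 and -0.40 in LOI(-) crypts. LOI(+) 2 was the lowest of all 6 arrays, while the other LOI(+) mice were the highest. The difference was 0.37 ± 0.26 (SE), with a 95% interval from -0.26 to 0.99 and a limma adjusted p of 0.844. It was 0.70 ± 0.11 without LOI(+) 2 and 0.16 ± 0.26 without LOI(+) 3. On the dimmer probe, A_66_P118721, LOI(+) 2 did not stand apart, with -0.96, -0.93 and -0.95 in LOI(+) against -1.33, -1.28 and -0.97 in LOI(-). The groups did not overlap by 0.004, a gap set by LOI(-) 3 alone. That difference was 0.24 ± 0.10 (SE), with an unadjusted p of 0.0443 and an adjusted p of 0.811 in limma over all probes. It had an unadjusted p under 0.05 in 10 of 23 alternative settings, and was at 0.098 without background correction, with an unadjusted p of 0.141. The raw Cy3 signal of LOI(+) 2 was 1579 on the brighter probe, against 2376 and 2559 in the other LOI(+) mice, and 743 on the dimmer probe, against 711 and 720.

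Tk1, the cytosolic thymidine kinase of S phase, was higher in every LOI(+) mouse than in any LOI(-) mouse. Its log2 ratio was 0.49, 0.41 and 0.50 in LOI(+) crypts, against 0.12, -0.24 and 0.26 in LOI(-) crypts. The LOI(+) mice lay close together, and LOI(-) 2 was the lowest. The mean was 0.47 ± 0.054 in LOI(+) and 0.049 ± 0.26 in LOI(-) (SD, n = 3 each). The difference of 0.42 ± 0.12 (SE), a fold of 1.34, had a 95% interval from 0.13 to 0.71, an unadjusted p of 0.0119 and an adjusted p of 0.801 in limma. Cy3 was 3479, 3595 and 3122 in LOI(+) against 2877, 1879 and 2586 in LOI(-), while Cy5 lay between 4954 and 5175 on the LOI(+) arrays and between 4778 and 5027 on the LOI(-) arrays. Without LOI(-) 2 the difference was 0.28 ± 0.076.

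Dut did not differ beyond the spread between mice. Its log2 ratio was -0.84, -1.01 and -0.54 in LOI(+) crypts, against -1.05, -1.13 and -0.79 in LOI(-) crypts. The groups overlapped, because LOI(+) 1 and LOI(+) 2 stood below LOI(-) 3. The difference was 0.19 ± 0.14 (SE), with a 95% interval from -0.14 to 0.52 and a limma adjusted p of 0.844, and it was 0.060 without LOI(+) 3. Dut and Chaf1b stayed below 0 on all 6 arrays, so their crypt signal was below that of the pooled cell line RNA. Crypt RNA always carried Cy3, and a dye bias of a probe cannot be told apart from such a level.

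**Figure D1:**
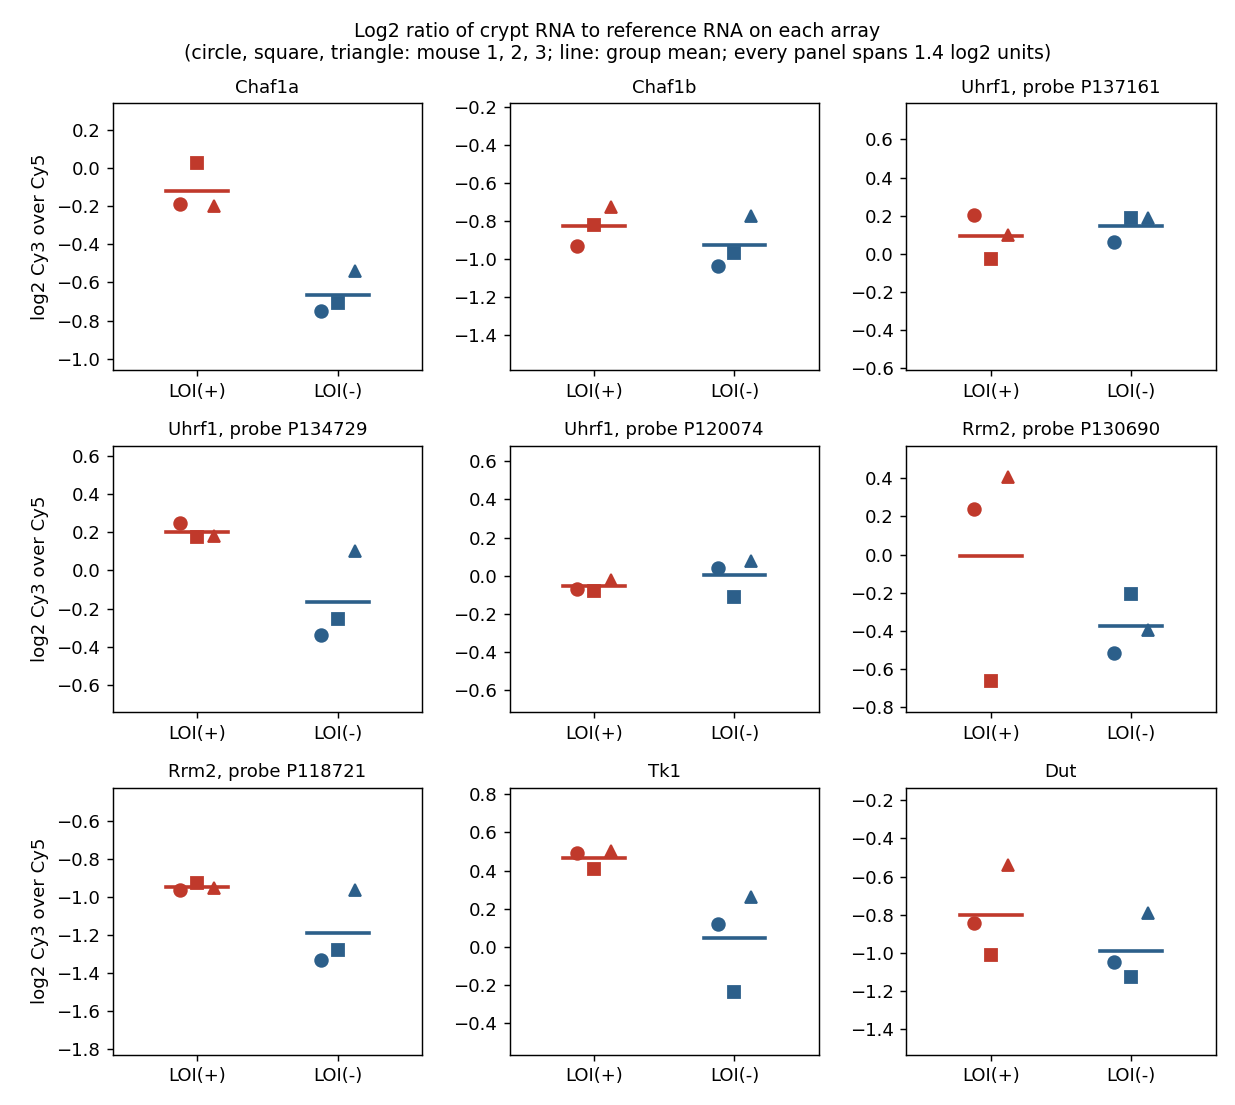
Log2 ratio of crypt RNA (Cy3) to pooled reference RNA (Cy5) for the 9 probes of the 6 genes, with LOI(+) mice left and LOI(-) mice right in each panel, markers for mice 1, 2 and 3, and a line at the group mean. Chaf1a and Tk1 show no overlap between the groups, the Uhrf1 probes disagree, and LOI(+) 2 lies at -0.66 on the brighter Rrm2 probe.

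Across the 6 genes, 5 had a higher mean in LOI(+) crypts, where 51.2% of all 37948 features did. At an adjusted p under 0.05 in limma 0 of the 6 were called, as were 0 of all features (0%), and the smallest adjusted p of any feature was 0.801. At an unadjusted p under 0.05, Chaf1a and Tk1 were higher and 0 genes were lower, against 3.92% of all features higher and 2.23% lower. The groups did not overlap, with LOI(+) higher, for the same 2 genes, against 6.39% of the 37657 features with a value on every array, and 0 genes were lower without overlap, against 5.01%. The median difference of the 6 was 0.28, against 0.0026 over all features. With so few genes, 1 gene more or less moves these shares widely. The genes did not move together on every array. The mean of the 6 centred ratios was 0.16, -0.019 and 0.25 in LOI(+) 1, 2 and 3, against -0.20, -0.18 and -0.012 in LOI(-) 1, 2 and 3. LOI(+) 2, highest for Chaf1a and lowest for Rrm2 and Uhrf1 on their brightest probes, thus stood about level with LOI(-) 3 on average. LOI(+) 3 was the highest array for 4 of the 6 genes.

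**Figure D2:**
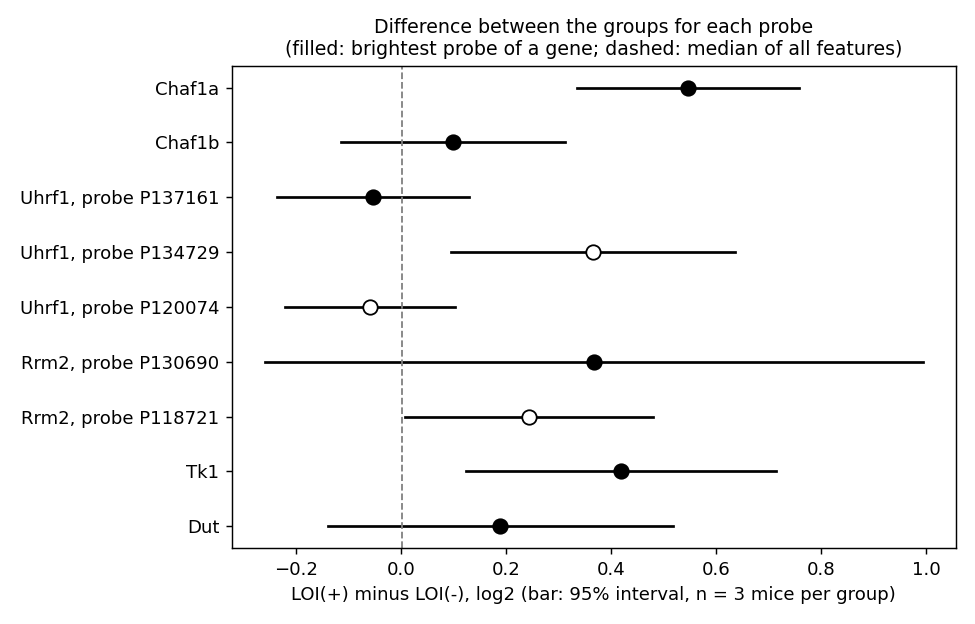
Difference between LOI(+) and LOI(-) crypts for each of the 9 probes on the log2 scale, with 95% intervals over 3 mice per group, filled points for the probe that stood for its gene and a dashed line at the median of all features. The intervals of Chaf1a, Tk1, Uhrf1 probe P134729 and Rrm2 probe P118721 lie above 0, none of these passed after adjustment, and the Rrm2 probe kept an unadjusted p under 0.05 in only 10 of 23 settings.

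**Figure D3:**
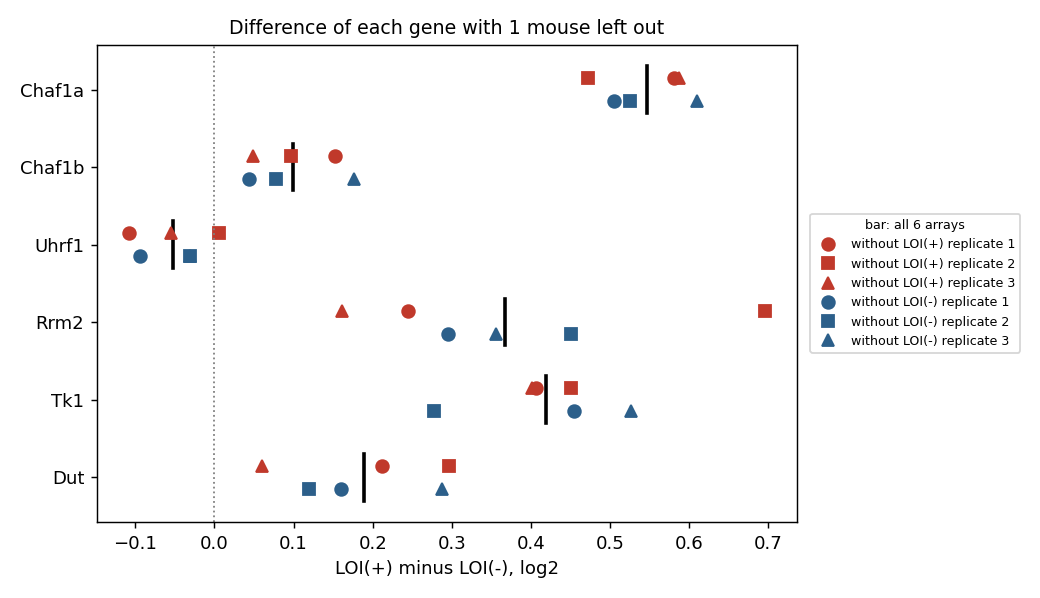
Difference between LOI(+) and LOI(-) crypts on the log2 scale for each of the 6 genes with 1 mouse left out at a time, red for a LOI(+) mouse and blue for a LOI(-) mouse left out, with a bar at the value over all 6 arrays. Chaf1a stays between 0.47 and 0.61, while Rrm2 ranges from 0.16 to 0.70.

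The mean of the 6 genes was set against 11644 other named genes that were above the negative controls on every array. The closest in pattern over the 6 arrays by Pearson's r were Apon at 0.993, the replicative helicase subunit Mcm2 at 0.983, Dnd1 at 0.972, Hap1 at 0.971, the histone H3 lysine 9 methyltransferase Ehmt1 at 0.971 and the nucleotide receptor P2ry4 at 0.970. These 6 arrays are shared by all genes, and 95 genes reached 0.9. None of the 6 passed the test, with differences from 0.043 for Dnd1 to 0.20 for Hap1. Among the 6 S phase genes themselves, r with the mean of the other 5 was 0.83 for Dut, 0.73 for Tk1, 0.62 for Chaf1b, 0.52 for Rrm2, 0.51 for Chaf1a and 0.031 for Uhrf1.

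Other genes of histone supply and deposition leaned the same way as Chaf1a, with exceptions. Of 31 listed, 21 were measured, and 15 had a higher mean in LOI(+) (71.4%, against 51.2% of all features). At an unadjusted p under 0.05, 5 were higher and 1 was lower, 28.6% in all against 6.16% of all features, and 0 passed after adjustment. Their median difference was 0.15. Slbp, which binds the stem-loop of histone mRNA, was at 0.50 ± 0.14 (SE) and Ssrp1, a subunit of the FACT histone chaperone, at 0.48 ± 0.14. Anp32e, a chaperone of the variant histone H2A.Z, was at 0.41 ± 0.15, H2az1, which encodes that variant, at 0.29 ± 0.12, and Nap1l4, another histone chaperone, at 0.20 ± 0.072. A second probe of Slbp gave 0.43 and one of H2az1 gave 0.25, but one of Nap1l4 gave -0.020. Rbbp4, the small histone-binding subunit of chromatin assembly factor 1, went the other way, at -1.55, -1.56 and -1.36 in LOI(+) crypts, against -1.37, -0.57 and -0.37 in LOI(-) crypts. LOI(-) 1 lay within the LOI(+) range, and the difference was -0.72 ± 0.24 (SE), with an adjusted p of 0.801 in limma. Supt16, the other FACT subunit, was also lower, at -0.23 ± 0.12, with overlap. Without overlap, 5 genes of the list were higher and 2 lower, against 6.39% and 5.01% of all features. The 2 lower ones were Atrx, at -0.14 ± 0.068, and Asf1b, at -0.088 ± 0.059. The count of higher genes at an unadjusted p under 0.05 was 9 without LOI(+) 1 or LOI(-) 3 and 2 without LOI(-) 1 or LOI(-) 2. Over all features, in either direction, that count was 2336 with all mice. It was 3349 without LOI(+) 1, 2403 without LOI(-) 3, 2096 without LOI(-) 1 and 1822 without LOI(-) 2. The median of this list was 0.086 without LOI(+) 3.

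Genes of DNA methylation and heterochromatin were near the share of all features by unadjusted p, though more of them had a higher mean. Of 26 listed, 20 were measured, 14 had a higher mean in LOI(+) (70%, against 51.2% of all features), and their median was 0.045. At an unadjusted p under 0.05, 2 were higher and 0 lower, 10% against 6.16% of all features. Hells, a chromatin remodeller needed for DNA methylation, was at -0.31, -0.13 and -0.29 in LOI(+) crypts, against -0.93, -0.75 and -0.49 in LOI(-) crypts. The groups did not overlap, and the difference was 0.48 ± 0.12 (SE), with an adjusted p of 0.801 in limma. Mbd2, a reader of methylated DNA, was at 0.29 ± 0.075, Ehmt1 at 0.15 ± 0.079 and Dnmt3l, a cofactor of new methylation, at -0.14 ± 0.076, with 0.0048 on its other probe. Dnmt1, the maintenance methyltransferase that UHRF1 recruits, was chosen after its values were seen. It stood at 0.021, -0.64 and 0.13 in LOI(+), against -0.34, -0.22 and -0.0050 in LOI(-), a difference of 0.025 ± 0.20 (SE). LOI(+) 2 was the lowest array for Dnmt1, as it was on the brighter Rrm2 probe. The list median was 0.081 without LOI(+) 1, 0.079 without LOI(+) 2, 0.022 without LOI(-) 2 and 0.084 without LOI(-) 3. Without LOI(-) 3, 5 genes were higher at an unadjusted p under 0.05. Over all features, in either direction, 2403 were under that level there, against 2336 with all mice.

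Enzymes of deoxynucleotide supply other than Rrm2, Tk1 and Dut had 6 of 32 measured genes higher at an unadjusted p under 0.05 and 0 lower, of 42 listed. That is 18.8%, against 6.16% of all features. A higher mean was found for 24 (75%, against 51.2% of all features), and the median was 0.071. Dctpp1, which breaks down dCTP and its modified forms, was at 0.34, 0.68 and 0.51 in LOI(+) crypts, against 0.045, -0.071 and 0.23 in LOI(-) crypts. Its groups did not overlap, and the difference was 0.44 ± 0.11 (SE), which limma gave an adjusted p of 0.801. Nme4, a nucleoside diphosphate kinase, was at 0.28 ± 0.082. Ada, adenosine deaminase, was at 0.27 ± 0.074 and at 0.12 on its other probe, and it is also counted among the villus enterocyte markers. Nudt1, which removes oxidised nucleotides, was at 0.24 ± 0.098 and Txnrd1, thioredoxin reductase, at 0.18 ± 0.071. The count was 10 and the median 0.17 without LOI(+) 1, the median was 0.011 without LOI(+) 2 and 0.12 without LOI(-) 3, and the count was 4 without LOI(+) 2, LOI(+) 3 or LOI(-) 2. Over all features, in either direction, the count was 2336 with all mice and 3349 without LOI(+) 1. It was 1496 without LOI(+) 2, 2256 without LOI(+) 3 and 1822 without LOI(-) 2.

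**Figure D4:**
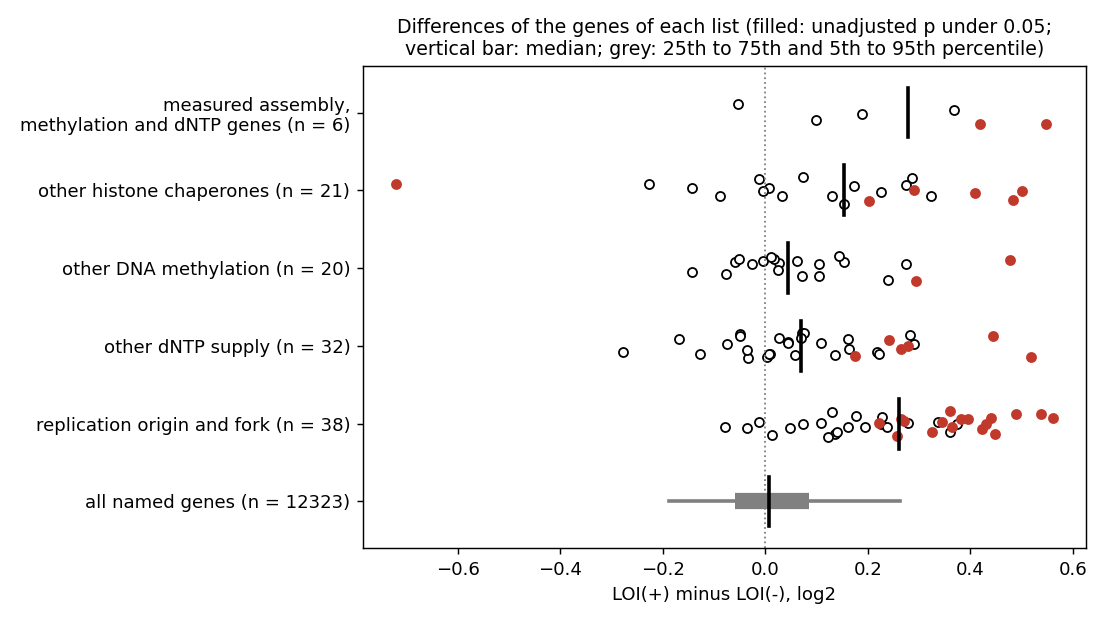
Differences between LOI(+) and LOI(-) crypts on the log2 scale for the 6 measured genes and 4 lists of related genes, with filled points at an unadjusted p under 0.05, a bar at each median and grey bars for the 5th to 95th and 25th to 75th percentiles of all named genes. The medians run from 0.045 for DNA methylation to 0.28 for the 6 genes, and Rbbp4 is the point at -0.72.

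Genes of the replication origin and fork had 17 of 38 measured higher at an unadjusted p under 0.05 and 0 lower. That is 44.7%, against 6.16% of all features, and the list median was 0.26. Chaf1a had a difference of the size of the helicase subunits Mcm5 at 0.54 ± 0.087 (SE) and Mcm3 at 0.43 ± 0.093 and of Gmnn at 0.56 ± 0.15. Cdc6 was at 0.45 ± 0.089, Rpa1 at 0.42 ± 0.091, Rpa2 at 0.49 ± 0.12, Rfc2 at 0.36 ± 0.092, Cdc7 at 0.32 ± 0.091, Mcm4 at 0.35 ± 0.10 and Lig1 at 0.44 ± 0.13. On their other probes Mcm5 gave 0.27, Mcm4 0.053 and Lig1 0.27 and -0.0049. Without LOI(-) 1 the count was 11, where 2096 of all features were under that level in either direction, against 2336 with all mice. The list was read in the same arrays and is no independent support for the 6 genes.

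Markers of other cells were set beside these differences. All 12 marker lists had array means that overlapped between the groups. Villus enterocyte markers had 8 of 10 measured genes with a higher mean in LOI(+), a median of 0.21, and list means of 3.00 to 3.05 in LOI(+) against 2.64 to 3.01 in LOI(-). Their summed processed Cy3 signal was 270470 to 354797 in LOI(+) and 211297 to 289088 in LOI(-), and all 10 exceeded the negative control level on all 6 arrays. The 9 measured markers of dividing crypt cells had a median of 0.19, with a higher mean for 5, and list means of 0.0060 to 0.43 in LOI(+) against -0.0050 to 0.21 in LOI(-). Their summed processed Cy3 signal was 58782 to 92571 in LOI(+) and 52956 to 59703 in LOI(-). Single markers of other types had an unadjusted p under 0.05 in limma, and all missed the threshold after adjustment. Of the 7 goblet cell genes 6 had a lower mean in LOI(+), with Muc2 at -0.19 ± 0.073 (SE) and Tff3 at -0.14 ± 0.058. The smooth muscle genes Cald1, at -0.33 ± 0.070, and Tagln, at -0.36 ± 0.12, were lower without overlap, as was the T cell gene Cd3g at -0.29 ± 0.078. Cald1 exceeded the negative control level on only 2 of 6 arrays, so little crypt signal stood behind its difference. The hormone genes Cck, at 0.46 ± 0.17, and Gip, at 0.65 ± 0.26, and the tuft cell gene Avil, at 0.26 ± 0.095, were higher, the Paneth list gene Nupr1 was at -0.50 ± 0.20, and the dividing cell gene Birc5 was at 0.62 ± 0.23. Other genes of these lists went either way. A higher mean in LOI(+) was found for 7 of 10 enteroendocrine genes (list median 0.075) and 5 of 8 tuft genes (0.074). It was found for 2 of 9 Paneth genes (-0.057), 2 of 7 smooth muscle genes (-0.12) and 3 of 10 T and NK cell genes (-0.015). In the villus list Ada and Slc2a5, at 0.24 ± 0.073, were higher. The part of these cell types in the values of Chaf1a or Tk1 was not tested.

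The promoters of the genes with a probe at an unadjusted p under 0.05 are shown because E2F sites are known from S phase genes. Each window runs from 250 bases before to 50 after a RefSeq start on GRCm38.p6, which for Dut and Tk1 lies inside the annotated gene. Capitals mark a 7-letter E2F-like word or its reverse complement (the word TTCCCGC, the word TTCGCGC, the word TTGCCGC or the word TTGGCGC) and the CCAAT box on either strand. E2F-like words and CCAAT boxes do not overlap each other here, but a pair of CCAAT boxes on opposite strands overlaps at the first Uhrf1 start, and the Tk1 window holds neither word and so no capitals. Chaf1a lies on chromosome 17 from 56040416 to 56068026, with Uhrf1 on the same chromosome 235311 bases further on, Rrm2 on chromosome 12 and Tk1 on chromosome 11, and Uhrf1 has 2 windows.
Chaf1a, chr17:56040166-56040465, plus strand: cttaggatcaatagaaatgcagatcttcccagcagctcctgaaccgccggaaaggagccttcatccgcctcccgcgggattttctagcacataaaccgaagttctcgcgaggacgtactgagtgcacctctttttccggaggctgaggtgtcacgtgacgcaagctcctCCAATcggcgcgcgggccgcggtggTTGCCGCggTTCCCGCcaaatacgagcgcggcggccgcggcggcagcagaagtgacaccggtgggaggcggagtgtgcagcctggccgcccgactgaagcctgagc
Uhrf1, first start, chr17:56303087-56303386, plus strand: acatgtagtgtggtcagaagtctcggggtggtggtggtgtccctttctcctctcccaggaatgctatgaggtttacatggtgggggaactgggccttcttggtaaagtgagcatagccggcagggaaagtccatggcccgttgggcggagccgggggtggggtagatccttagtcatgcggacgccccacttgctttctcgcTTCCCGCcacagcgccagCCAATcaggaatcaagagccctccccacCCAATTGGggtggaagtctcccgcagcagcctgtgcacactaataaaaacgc
Uhrf1, second start, chr17:56304063-56304362, plus strand: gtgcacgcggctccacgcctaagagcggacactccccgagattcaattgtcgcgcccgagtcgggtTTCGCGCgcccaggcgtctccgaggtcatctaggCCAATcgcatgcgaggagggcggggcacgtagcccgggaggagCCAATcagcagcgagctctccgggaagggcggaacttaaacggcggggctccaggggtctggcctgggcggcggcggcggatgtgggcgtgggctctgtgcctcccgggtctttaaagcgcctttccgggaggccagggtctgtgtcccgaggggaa
Rrm2, chr12:24708004-24708303, plus strand: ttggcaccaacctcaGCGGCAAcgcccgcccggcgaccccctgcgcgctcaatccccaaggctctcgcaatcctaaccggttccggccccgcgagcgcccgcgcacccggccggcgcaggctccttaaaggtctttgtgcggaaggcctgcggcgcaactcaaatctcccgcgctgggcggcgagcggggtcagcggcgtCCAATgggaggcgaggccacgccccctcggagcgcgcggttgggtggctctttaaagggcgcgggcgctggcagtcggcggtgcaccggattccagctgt
Tk1, chr11:117825965-117826264, minus strand: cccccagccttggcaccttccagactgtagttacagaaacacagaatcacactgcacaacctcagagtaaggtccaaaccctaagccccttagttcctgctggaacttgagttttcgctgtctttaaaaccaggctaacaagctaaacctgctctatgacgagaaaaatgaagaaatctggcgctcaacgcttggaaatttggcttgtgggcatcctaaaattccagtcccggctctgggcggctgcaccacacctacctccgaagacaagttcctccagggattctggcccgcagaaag
The 8-letter E2F form (TTTCCCGC, TTTCGCGC, TTTGCCGC or TTTGGCGC, both strands) was found only in the second Uhrf1 window among the 9 windows of the 8 genes, and in 2.26% of all 32851 windows. The 7-letter form was chosen after that search had been read. It was in 6 of the 9 windows, those of Chaf1a, Chaf1b, Rrm1 and Rrm2 and both of Uhrf1, and in 9.57% of all windows. Chaf1a had it at 56 and 47 bases before the start, and the windows of Tk1 and Dut did not hold it. The Dut window begins at 125247265, inside the gene that starts at 125247248, so the bases before that start were not searched. The Tk1 gene reaches 117826087 on the minus strand, inside its window, so fewer than 250 bases before that end were searched. CCAAT was in 5 of the 9 windows and in 37.4% of all. The words TTTGAA and TTCGAA, the cell cycle homology region of genes of late cell cycle, were in 0 of the 9 and in 19.2% of all.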

How the data were processed

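Crypt RNA (Cy3) of 3 LOI(+) and 3 LOI(-) mice was set against pooled reference RNA (Cy5) on 1 array per mouse, per the labels, with no dye swap. The authors deposited the intensity of each spot in both channels from Agilent Feature Extraction, per the file headers. The headers also give processed intensity, with background subtracted and dyes normalized. The authors' log10 table, an alternative here, tracked the processed log10 ratio shifted by the mean log10 of Cy5, with r of 0.9984 or more over 41174 features, and each column had a median of 2.90.

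Probe accessions were matched to RefSeq genes of GRCm38.p6, which named 15381 of 41006 probes (37.5%). In R 4.3.3, limma 3.58.1 took the mean signals through normexp (offset 50) and then loess on each array, where control spots had weight 0. Spots with outlier flags were left out and saturated spots kept. No value of the 6 genes was left out or saturated. The brightest probe stood for a gene. Groups were compared with lmFit and eBayes, two-sided, and p-values were adjusted by Benjamini-Hochberg across 37948 features (named genes plus unnamed probes), or over all probes for single probes. The number of arrays limits the precision, and the median SE over all features was 0.077. The code of the tests was checked on simulated data with noise drawn separately for each gene and array. Effects shared by the genes of an array were left out. The check therefore does not show how often real changes would be found here.

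The genes, lists and rules were chosen with earlier results of these data known. Named were all probes of the 6 genes, the 4 genes of smallest p in each related list with those at an unadjusted p under 0.05 up to 10, and the 6 genes most alike in pattern. The result of 1 gene that this rule names is not reported here. Each array was its own slide. Images were extracted with the LOI(-) arrays first and the LOI(+) arrays after them, so that this order cannot be told apart from the groups. Mice are separate animals per the labels. Alternatives changed the background correction, the normalization, the channel or table read, the filter on dim spots, how probes were joined into genes and the model (with the replicate number as a block too), or kept the mice labelled male, or left out each array.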

Additional observations from a re-analysis of the deposited data

How the results depend on the processing

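Over 24 alternative settings, 0 features passed an adjusted p of 0.05 in each, and 1496 (without LOI(+) 2) to 3349 features had an unadjusted p under 0.05. Chaf1a kept its direction and an unadjusted p under 0.05 in all 24, from 0.47 to 0.61, and Tk1 in 23, from 0.28 to 0.56. Rrm2 and Dut kept their direction in all 24. The 24 are not all separate checks. Aquantile normalization between arrays left the log2 ratios as they were and repeated the main fit. Settings on dim or saturated spots, probe rows, moderation or the replicate block could change a p-value but left the differences of the 6 genes unchanged. Chaf1b turned to -0.0010 without background correction and -0.0024 with median centring. Uhrf1 turned to 0.085 with the mean of its probes, 0.027 in the 4 mice labelled male and 0.0061 without LOI(+) 2 (down to -0.11 without LOI(+) 1). In Cy3 alone Uhrf1 was at -0.26, its lowest value and the only one of the 24 with an unadjusted p under 0.05, while its probe A_66_P120074 turned to 0.069. Of the 6 genes, 1 had an unadjusted p under 0.05 without moderation and 4 in the mice labelled male, where the median difference was 0.47. Over all features, 2115 were under that level without moderation and 1734 in the mice labelled male. With 1 array left out the count was 2 to 3 and the median 0.11 (without LOI(+) 3) to 0.37. The cause was not tested. With the replicate number as a block the count was 3, but same-numbered mice correlated with r of -0.088, -0.25 and 0.35. Of these pairs, only the mice numbered 3 correlated best with each other. The r values rest on deviations from means of 3 mice and cannot settle whether the mice were paired. In the mice labelled male, 7 of the 20 measured DNA methylation genes were higher at an unadjusted p under 0.05, against 2 with all mice. The median of that list was 0.11 there. Leaving out arrays for the lists was added after seeing the data. Chaf1b, near the negative controls, is limited by signal over background.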
